A study of Mus musculus with 6 samples.

Results

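The mucins of mouse airway epithelium fall into membrane-bound and gel-forming proteins, and 10 genes of this system were followed in sorted lung epithelial cells. They were the membrane-bound mucins Muc1, Muc4, Muc16 and Muc20, the gel-forming mucins Muc5ac and Muc5b, and the goblet cell genes Agr2, Spdef, Foxa3 and Tff2. Each was taken by its gene symbol, and all 10 were found among the 48577 genes of every count table. The tdTomato-positive group held 3 libraries of CD45-, EpCAM+ lung cells with tdTomato fluorescence, and the tdTomato-negative group held 3 libraries of CD45-, EpCAM+ lung cells without it. All cells came from C57BL/6 mice carrying Miwi2tdTomato, an allele in which the fluorescent protein tdTomato reports Piwil4, the gene of the Piwi protein MIWI2. Each of 3 mice gave 1 library of either fraction. Treatment, age, sex and zygosity are not given in the sources used here. CD45 is a marker of leukocytes and EpCAM one of epithelium. The labels name both fractions multiciliated cells, but no gate for cilia is given.

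Membrane-bound mucins stay anchored in the apical cell surface, where their extracellular domains form a brush around cilia and microvilli. Gel-forming mucins are packed into granules, released by exocytosis and swell into the mucus that cilia carry out of the airway. In mouse airways Muc5b is the constitutive gel-forming mucin, made largely by secretory (club) cells, and Muc5ac is known for its induction in goblet cells during allergic inflammation.

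All values derive from raw read counts per gene. Reads assigned to genes numbered 5763317, 5602309 and 5667162 in the positive libraries of mice 1, 2 and 3, against 5330584, 6326395 and 5432227 in the negative ones. Piwil4 was at 101, 95.7 and 111 CPM (reads scaled to a common library size, here corrected for composition by the TMM method) in the positive libraries, against 44.0, 29.97 and 45.6 CPM in the negative ones, a log2 fold change of 1.38 (edgeR with the mouse as a block, adjusted p = 0.000223; adjusted p = 0.0672 without mouse 3). The tdTomato row had 37, 16 and 18 reads in the positive libraries and 0 in each negative library. The positive library of mouse 1 stood apart from the other 5 on the first principal component, at 75.2 against -34.2 to 8.12. The 12 multiciliated markers summed to 6581 to 6936 CPM in the positive libraries and 6528 to 6971 CPM in the negative ones. The 12 club cell markers summed to 27110, 27861 and 13221 CPM in positive cells of mice 1, 2 and 3, against 12500, 12704 and 8862 CPM in the negative ones. The 10 alveolar type 2 markers, genes of surfactant-making cells, summed to 879, 1070 and 553 CPM in the positive libraries, against 7479, 6133 and 7430 CPM in the negative ones. Both fractions thus held RNA of multiciliated, club and alveolar type 2 markers, with different sums for the last 2 lists. The similar multiciliated sums hid differences of single genes. Of these 12 markers, 8 had a log2 fold change above 0 and 4 below 0. With the mouse as a block 3 rose and 0 fell, beside 1.36% of all genes higher and 1.79% lower (edgeR). Without the block 0 were called, beside 0.622% of all genes (edgeR). The 3 were Foxj1, Tppp3 and Cfap126 (edgeR with the block, adjusted p = 0.000129, 0.000729 and 0.0301). The 8 leukocyte markers, all detected in both groups, summed to 48.8, 208 and 33.5 CPM in the positive libraries, against 379, 1278 and 179 CPM in the negative ones. Lyz1 alone made up most of this sum. Its mean was 70.9 of 96.8 CPM in positive and 550 of 612 CPM in negative libraries. All 4 leukocyte markers tested had a log2 fold change below 0 (edgeR with the mouse as a block). Of these, 2 were called lower, Lyz1 at -3.37 and Ptprc at -2.37, beside 1.79% of all genes. Cd68 and Csf1r were at -0.51 and -0.45 and were not called. Lyz2, listed here as an alveolar type 2 marker, was at -3.06. The part of alveolar type 2 RNA in the Lyz1 reads was not tested. Cd3e, which was not tested, had 27 reads in the positive and 9 reads in the negative libraries. Ptprc, the gene of CD45, had 94 reads in the positive and 448 reads in the negative libraries and was called lower (edgeR with the mouse as a block, adjusted p = 0.00502; adjusted p = 0.41 without the block). Trp63, the defining factor of basal cells, had 0 reads in the positive and 128 reads in the negative libraries and was called lower with and without the block. The 5 basal cell markers summed to 1.01 to 2.06 CPM in positive and 10.1 to 17.5 CPM in negative libraries.

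The coding sequence of large mucins is repetitive, which bears on how many of their reads a counter can place. The most often repeated stretch of 48 bases in the transcript of Muc5ac, Muc5b and Muc4 is shown at its first copy, which lies in coding sequence. It is given 5′ to 3′ on the gene's strand in GRCm38. These stretches are shown because a read that matches several copies alike may be counted as aligned to several places. Such reads had a summary row of their own outside the gene counts. The read length is not given in the sources used here, and how many reads of these genes were affected was not tested.
Muc5ac, chr7:141808654-141808701, plus strand: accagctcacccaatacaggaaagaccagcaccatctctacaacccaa
Muc5b, chr7:141858120-141858167, plus strand: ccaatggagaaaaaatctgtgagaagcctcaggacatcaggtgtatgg
Muc4, chr16:32752104-32752151, plus strand: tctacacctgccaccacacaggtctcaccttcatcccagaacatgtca

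The Muc5ac stretch occurred 11 times in the transcript, with its first copy in exon 31 of 49, most often at a spacing of 96 bases. The Muc5b stretch occurred 6 times in the transcript, most often 942 bases apart. Its first copy lay in exon 31 of 49, an exon of 8019 bases. The Muc4 stretch occurred 6 times in the transcript, with its first copy in exon 2 of 27, most often 372 bases apart. The exon of the later copies was not determined for any of these genes. Of all 100-base windows in the annotated transcript, 19.5% occurred more than once in Muc5ac, 16.0% in Muc5b, 2.31% in Muc4 and 0.466% in Muc16. The share was 0% in Muc1, Muc20, Agr2, Spdef, Foxa3 and Tff2. Counts of the gel-forming mucins may miss part of their reads.

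Muc4 and Muc20 are neighbours on chromosome 16, and the starts of both are shown because the genes share a locus. Each sequence runs from 250 bases before to 50 bases after the gene's start (RefSeq, GRCm38.p6), 5′ to 3′ on the gene's strand, and capitals mark a forkhead-type motif.
Muc20, chr16:32797386-32797685, minus strand: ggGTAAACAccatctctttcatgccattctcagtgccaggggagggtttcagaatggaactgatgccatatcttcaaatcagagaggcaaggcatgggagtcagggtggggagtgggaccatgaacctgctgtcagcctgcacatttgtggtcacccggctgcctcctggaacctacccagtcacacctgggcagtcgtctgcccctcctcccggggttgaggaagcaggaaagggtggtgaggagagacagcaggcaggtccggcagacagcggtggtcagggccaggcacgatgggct
Muc4, chr16:32735636-32735935, plus strand: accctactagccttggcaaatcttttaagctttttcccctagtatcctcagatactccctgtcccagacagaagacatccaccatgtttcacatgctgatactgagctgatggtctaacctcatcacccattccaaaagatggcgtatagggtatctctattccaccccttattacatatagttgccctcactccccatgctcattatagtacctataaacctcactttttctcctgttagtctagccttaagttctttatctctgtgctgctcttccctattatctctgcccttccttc

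Motifs were searched on both strands of the 7 members with a RefSeq promoter, which were all but Muc5ac, Muc5b and Tff2. The forkhead letters TGTTTAC or TATTTAC were found in 6.545% of 32851 promoters, the SPDEF-type letters CCGGAT in 6.039% and the RFX-type letters GTTGCCA or GTTGCTA in 7.634%. Among the members, Muc20 held TGTTTAC at position -248 and Spdef held TATTTAC at position -47 from the start site, both on the strand opposite to the gene. No other match was found in these windows.

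Of the 10 members, 7 passed the filter on low counts and 3 (Spdef, Foxa3 and Tff2) did not. None of the 7 passed the test across all 13175 genes kept, which was the quasi-likelihood test of edgeR with the mouse as a block and a Benjamini-Hochberg adjusted p under 0.05. That model called 3.15% of all genes kept, 415 in number. At an unadjusted p under 0.05 it took 2 members, Muc20 and Muc5ac, against 15.9% of all genes. Without the mouse in the edgeR model, 0 members were called and 1 had an unadjusted p under 0.05, where the model called 0.622% of all genes and 10.7% had such a p. DESeq2 called 0 members, with 3 at an unadjusted p under 0.05, against 3.52% of all genes called and 13.1% with such a p. Limma-voom called 2 members, Muc5ac and Muc5b, and 4.1% of all genes. Among the 7 tested members, 4 were higher in the positive library of all 3 mice (Muc20, Muc5ac, Muc5b and Agr2), as were 19.8% of all genes. Some of these differences were small. In mouse 3 Muc5ac had 1 read against 0 and Muc5b was 1.07-fold, and in mouse 1 Muc5ac had 19 reads against 15. With the mice left out in turn, edgeR with the block called 4 members and 4.76% of all genes without mouse 1, 0 members and 2.83% without mouse 2, and 1 member and 0.439% without mouse 3.

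**Figure D1:**
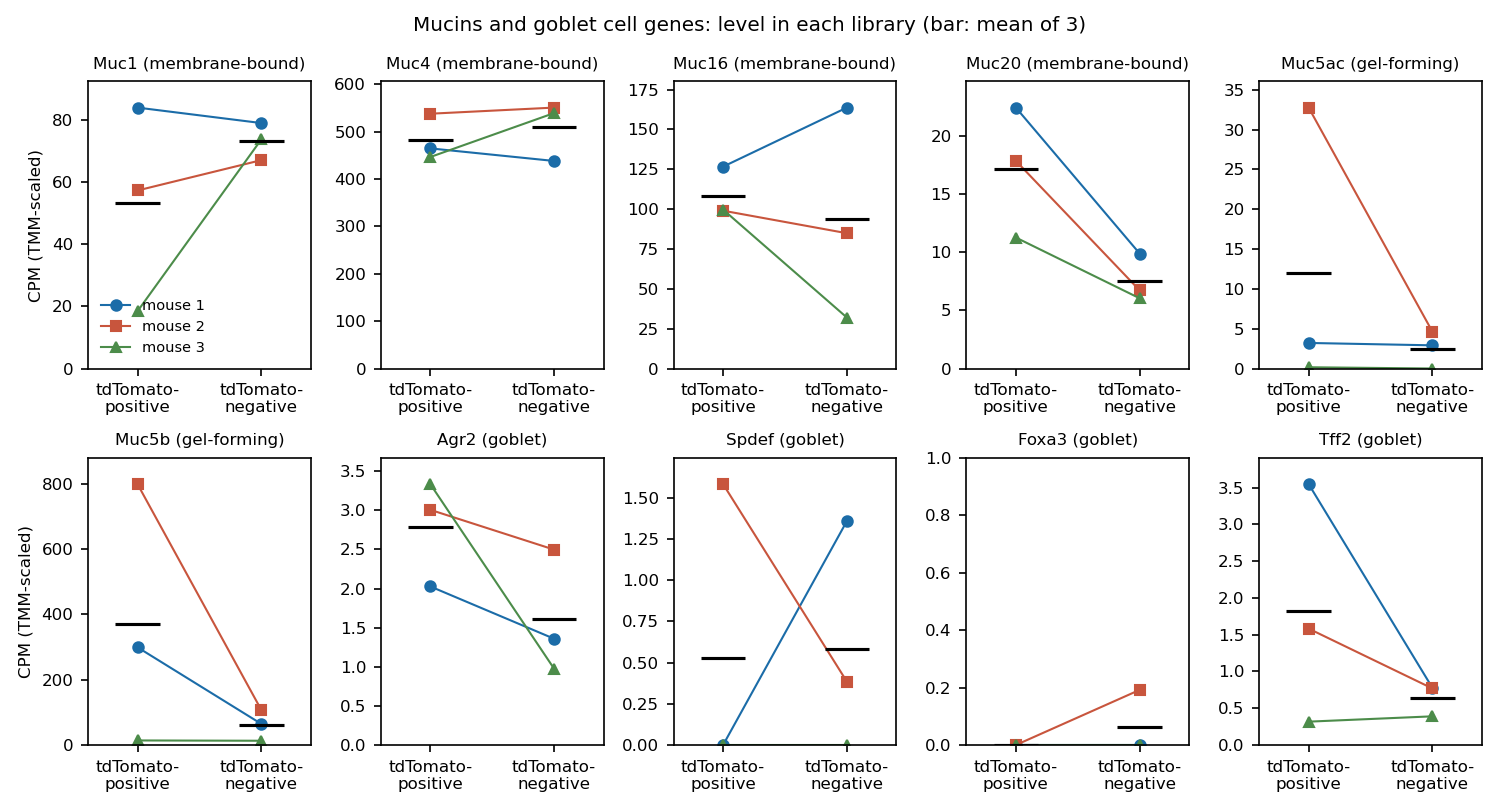
Level of each of the 10 genes in the 6 libraries, in TMM-scaled CPM on a linear axis from 0, with lines joining the tdTomato-positive and tdTomato-negative library of each mouse and a black bar at the mean of 3. Only Muc20 among the 7 tested genes has all positive libraries above all negative ones, and Muc5b spans 14.0 to 799 CPM in the positive libraries.

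Muc4, a long membrane-bound mucin of ciliated and secretory surface epithelium that can associate with the receptor ERBB2, was the most abundant of the 10 genes per length, at a mean of 42.2 CPM per kilobase of exon over the 6 libraries. In the positive library of mouse 2 it was second to Muc5b, at 45.7 against 53.4 CPM per kilobase. It spans chr16:32735886-32782391 on the plus strand. Its level was 465, 538 and 446 CPM in positive cells of mice 1, 2 and 3, against 438, 551 and 539 CPM in the negative ones. The groups overlapped and all 6 values lay close together. The mean was 483 ± 48.4 CPM in positive and 509 ± 62.0 CPM in negative cells (SD, n = 3 each). The log2 fold change was -0.07 with a standard error of 0.134 and a 95% interval of -0.36 to 0.21 (edgeR, adjusted p = 0.841). Per kilobase of exon the mean level was 41.1 CPM in positive and 43.3 CPM in negative cells.

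Muc1, a short membrane-bound mucin with a signalling cytoplasmic tail, lies at chr3:89229057-89233381 on the plus strand. It is known in many epithelia, alveolar type 2 cells included. Its level was 83.9, 57.3 and 18.4 CPM in positive cells of mice 1, 2 and 3, against 79.0, 67.0 and 73.7 CPM in the negative ones. The positive library of mouse 3 was low and the other 5 were alike. The log2 difference within mice was 0.09, -0.23 and -2.00. The log2 fold change was -0.66 with a standard error of 0.361 and an interval of -1.49 to 0.16 (edgeR, adjusted p = 0.424). Without mouse 3 it was -0.069 (edgeR, adjusted p = 0.965), and without mouse 1 it was -1.10 and passed the test (edgeR, adjusted p = 0.000947). All 10 alveolar type 2 markers were detected in both groups. Of these, 8 fell in the positive cells, beside 1.79% of all genes (edgeR with the mouse as a block). The 10 summed to 553 to 1070 CPM in the positive cells, against 6133 to 7479 CPM in the negative cells. This marker sum was lower in the positive library of all 3 mice, beside log2 differences of Muc1 of 0.09, -0.23 and -2.00. The positive library of mouse 3 had both the lowest marker sum and the lowest Muc1. The part of alveolar type 2 RNA in the Muc1 values was not tested.

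Muc16, a very large membrane-bound mucin of airway and mesothelial surfaces that binds mesothelin, spans chr9:18495455-18674530 on the minus strand. Its level was 127, 99.0 and 99.7 CPM in positive cells of mice 1, 2 and 3, against 164, 84.9 and 32.0 CPM in the negative ones. The negative libraries spread on both sides of the positive ones, and the direction within mice differed, with log2 differences of -0.37, 0.22 and 1.64. The log2 fold change was 0.46 with a standard error of 0.343 and an interval of -0.33 to 1.25 (edgeR, adjusted p = 0.577). It was -0.08 without mouse 3, and 0.89 without mouse 1, where it passed the test (edgeR, adjusted p = 0.00583). The 6 mesothelial markers, all detected in both groups, summed to 23.6, 17.6 and 5.08 CPM in the positive libraries, against 43.7, 19.98 and 9.16 CPM in the negative ones. None of the 5 tested was called by edgeR with or without the block, DESeq2 or limma-voom. In edgeR 0 of the 5 had an unadjusted p under 0.05, against 15.9% of all genes with the block and 10.7% without it. The part of mesothelial RNA in the Muc16 values was not tested.

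Muc20, a smaller membrane-bound mucin, was the 1 tested member whose groups did not overlap. It spans chr16:32777419-32797435 on the minus strand. It had 133, 113 and 71 reads in the positive libraries of mice 1, 2 and 3, against 51, 35 and 31 reads in the negative ones. These are 22.5, 17.9 and 11.3 CPM in the positive libraries and 9.89, 6.72 and 6.04 CPM in the negative ones. All positive libraries lay above all negative ones, as for 8.29% of all genes kept, and the fold within mice was 2.27, 2.66 and 1.87. The fitted difference was 2.24-fold with a 95% interval of 1.38 to 3.65 (edgeR, log2 fold change 1.17 with a standard error of 0.332, unadjusted p = 0.0027, adjusted p = 0.0694). It missed the threshold in this model and without the block (edgeR, adjusted p = 0.264). It passed with scaling to library size only (edgeR, adjusted p = 0.0174), a scaling that moved the all-gene median of log2 fold changes to 0.259 and called 6.25% of all genes. It also passed with no filter on low counts, which called 2.41% (edgeR, adjusted p = 0.0471).

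Muc20 and Muc4 overlap tail to tail on opposite strands over 4973 bases, chr16:32777419-32782391. Exons of both share 627 bases, which are 15.6% of Muc20 exon sequence and 5.33% of Muc4 exon sequence. No source used here gives the strand setting of the counting, so how reads of the shared exons were assigned is not known. Ambiguous reads had a summary row of their own outside the gene counts. They were 1.94% ± 0.0478 of all rows in positive and 1.44% ± 0.22 in negative libraries (SD, n = 3 each). The part of the shared exons in the Muc20 and Muc4 counts was not tested. For every 100 Muc4 reads there were 4.83, 3.32 and 2.53 Muc20 reads in the positive libraries of mice 1, 2 and 3, against 2.26, 1.22 and 1.12 in the negative ones. This ratio does not depend on library size, and it did not overlap between the groups. Muc4 itself differed by -0.07 on the log2 scale, as given above. The summed club cell markers, all 12 detected in both groups, were also higher in the positive library of each mouse, at 13221 to 27861 CPM in positive and 8862 to 12704 CPM in negative cells. Mouse 3 was the lowest in either fraction for the marker sum, as it was for Muc20. The part of club cell RNA in the Muc20 values was not tested.

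**Figure D2:**
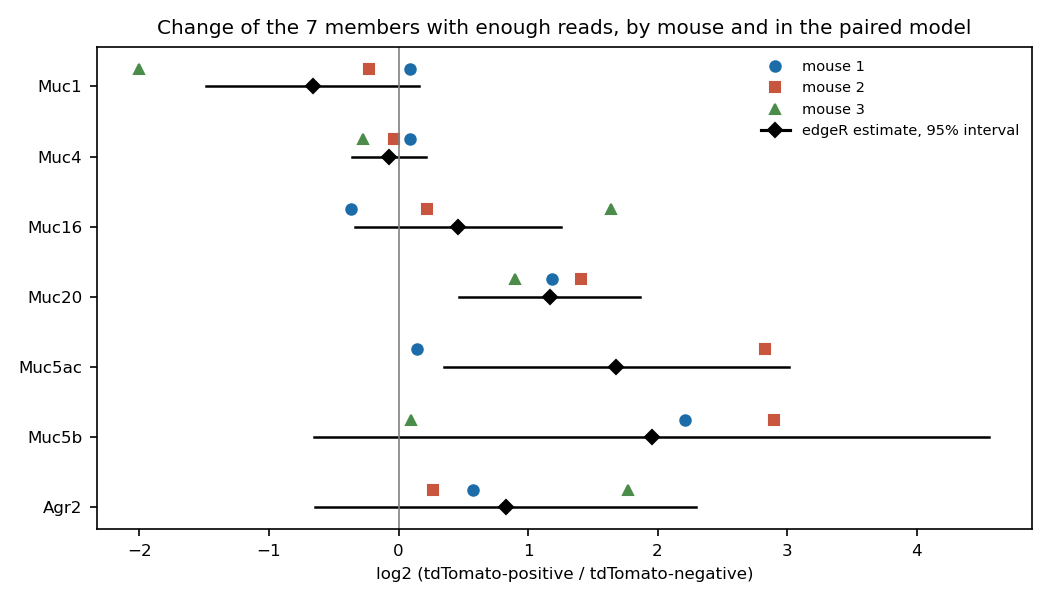
Change of the 7 tested members as log2 of tdTomato-positive over tdTomato-negative, with coloured points for each mouse and a black diamond and bar for the estimate and 95% interval of edgeR with the mouse as a block. Muc4 lies at -0.07 with the narrowest bar, the points of Muc20 lie together between 0.90 and 1.41, and the bar of Muc5b reaches -0.65 and 4.56. Muc5ac has no point for mouse 3, where the negative library had 0 reads.

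Muc5b, at chr7:141839070-141873084 on the plus strand, was by far the more abundant gel-forming mucin, and its difference depended on the mouse. It had 1771, 5048 and 88 reads in the positive libraries of mice 1, 2 and 3, against 333, 558 and 67 reads in the negative ones. These are 299, 799 and 14.0 CPM in the positive libraries and 64.6, 107 and 13.1 CPM in the negative ones. Mouse 3 was low in both fractions, and the groups overlapped. The fold within mice was 4.63, 7.45 and 1.07.

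The mean Muc5b level was 371 ± 397 CPM in positive and 61.6 ± 47.1 CPM in negative cells (SD, n = 3 each). The fitted difference was 3.88-fold with a 95% interval of 0.636 to 23.6 (edgeR, log2 fold change 1.95 with a standard error of 0.742, adjusted p = 0.407; adjusted p = 0.63 without the block). Limma-voom with the mouse in the design gave an adjusted p of 6.52e-07. Without mouse 3 the log2 fold change was 2.56 (edgeR, adjusted p = 0.00197), without mouse 1 it was 1.77 (edgeR, adjusted p = 1.05e-10) and without mouse 2 it was 1.38 (edgeR, adjusted p = 0.613).

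Muc5ac, at chr7:141788972-141819231, ends 19838 bases before Muc5b on the same strand. It had 19, 207 and 1 reads in the positive libraries of mice 1, 2 and 3, against 15, 24 and 0 reads in the negative ones. These are 3.21, 32.8 and 0.159 CPM in positive cells and 2.91, 4.61 and 0 CPM in negative cells. Only the positive library of mouse 2 stood out. The log2 fold change was 1.68 with a standard error of 0.63 and an interval of 0.35 to 3.01 (edgeR, unadjusted p = 0.0162, adjusted p = 0.182; adjusted p = 0.693 without the block). With the positive library of mouse 2 left out and no block, it was -0.58. Without mouse 1 it was 2.81 and passed the test (edgeR, adjusted p = 0.000383).

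Muc5b was set beside the secretoglobin Scgb1a1, the defining transcript of club cells. In mice 1, 2 and 3 the fold of positive over negative was 6.30, 4.06 and 3.01 for Scgb1a1, against 4.63, 7.45 and 1.07 for Muc5b. Scgb1a1 was at 12402, 13687 and 2240 CPM in positive cells of mice 1, 2 and 3, against 1969, 3375 and 745 CPM in the negative ones. For every 1000 Scgb1a1 reads there were 24.1, 58.4 and 6.24 Muc5b reads in the positive libraries, against 32.8, 31.8 and 17.5 in the negative ones. Set against Scgb1a1, Muc5b was thus lower in the positive library of mice 1 and 3 and higher in that of mouse 2. Of the 12 club cell markers, all detected in both groups, 6 rose in positive cells with the mouse as a block and 0 without it (edgeR). With the block 1.36% of all genes were called higher. The part of club cell RNA in the Muc5b values was not tested, and in such bulk samples fewer cells of a type and less RNA per cell cannot be told apart.

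**Figure D3:**
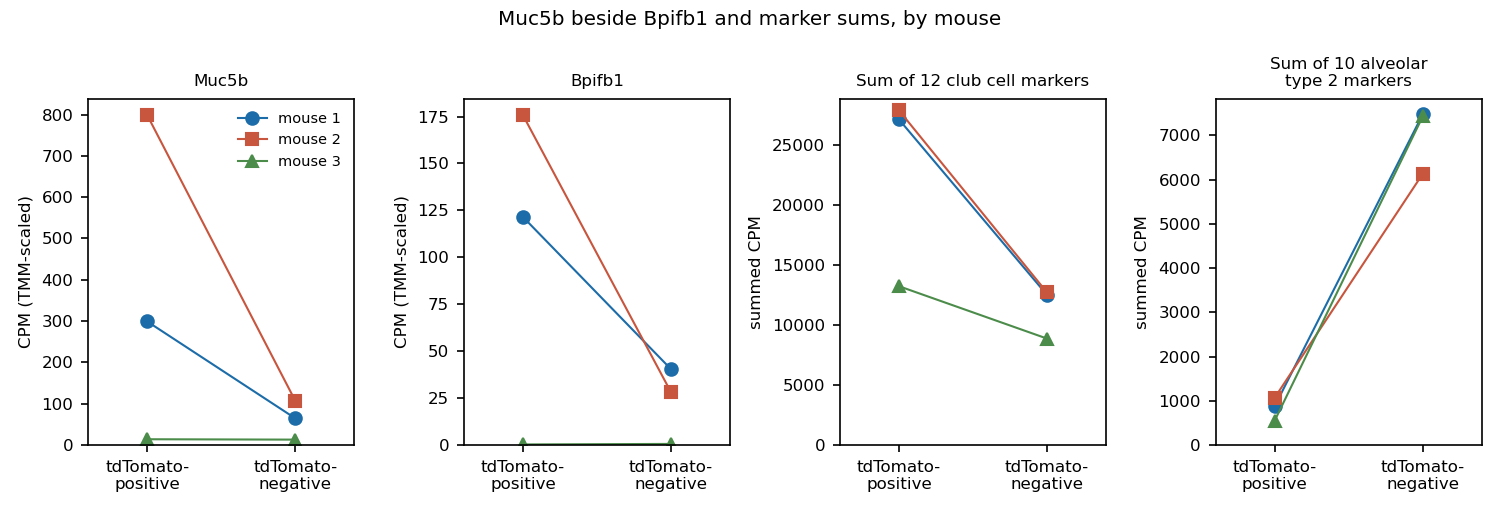
Muc5b, the secretory protein gene Bpifb1, the summed 12 club cell markers and the summed 10 alveolar type 2 markers in CPM on linear axes from 0, with lines joining the tdTomato-positive and tdTomato-negative library of each mouse. Mouse 3 is the lowest in Muc5b, Bpifb1 and the club cell sum in both fractions, while the alveolar type 2 sum is lower in the positive library of each mouse.

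The membrane-bound class was compared with the gel-forming class per kilobase of exon, so that long genes do not count for more. The 4 membrane-bound mucins summed to 85.7, 78.4 and 52.4 CPM per kilobase in the positive libraries of mice 1, 2 and 3, against 79.6, 80.3 and 80.0 in the negative ones. The 2 gel-forming mucins summed to 20.3, 56.4 and 0.949 CPM per kilobase in the positive libraries, against 4.59, 7.59 and 0.873 in the negative ones. By the reads counted, membrane-bound transcripts were the larger class in all 6 libraries. The sums were not corrected for reads that the repeats of the gel-forming mucins, described above, may have lost.

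The membrane-bound sum was 4.22, 1.39 and 55.2 times the gel-forming sum in the positive libraries of mice 1, 2 and 3, against 17.3, 10.6 and 91.6 times in the negative ones. The ratio was thus lower in the positive library of each mouse, while mouse 3 was far above the others in both fractions. The log2 difference of the ratio, positive minus negative, was -2.04, -2.93 and -0.73, with a mean of -1.90 ± 1.11 (SD, n = 3). Gel-forming mucins made up 19.1%, 41.9% and 1.78% of the mucin sum in the positive libraries, against 5.45%, 8.64% and 1.08% in the negative ones.

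In mice 1 and 2 the shift came with the gel-forming sum, which was 4.42 and 7.43 times as high in positive as in negative cells, while the membrane-bound sum was 1.08 and 0.976 times as high. In mouse 3 the gel-forming sum was 1.09 times and the membrane-bound sum 0.655 times as high. The median log2 fold change was 0.19 over the 4 membrane-bound mucins and 1.82 over the 2 gel-forming mucins, beside 0.000555 over all genes kept.

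Within the membrane-bound class Muc4 and Muc1 led in all 6 libraries. Muc4 held 46.1%, 58.4% and 72.5% of the class in the positive libraries of mice 1, 2 and 3, against 46.8%, 58.3% and 57.3% in the negative ones. Muc1 held 41.8%, 31.2% and 15.0% in the positive libraries, against 42.3%, 35.6% and 39.3% in the negative ones. Muc20 held 6.51%, 5.67% and 5.34% in the positive libraries, against 3.09%, 2.08% and 1.88% in the negative ones, with no overlap. Within the gel-forming class Muc5b held 94.6% to 98.5% in the positive and 94.1% to 100% in the negative libraries.

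**Figure D4:**
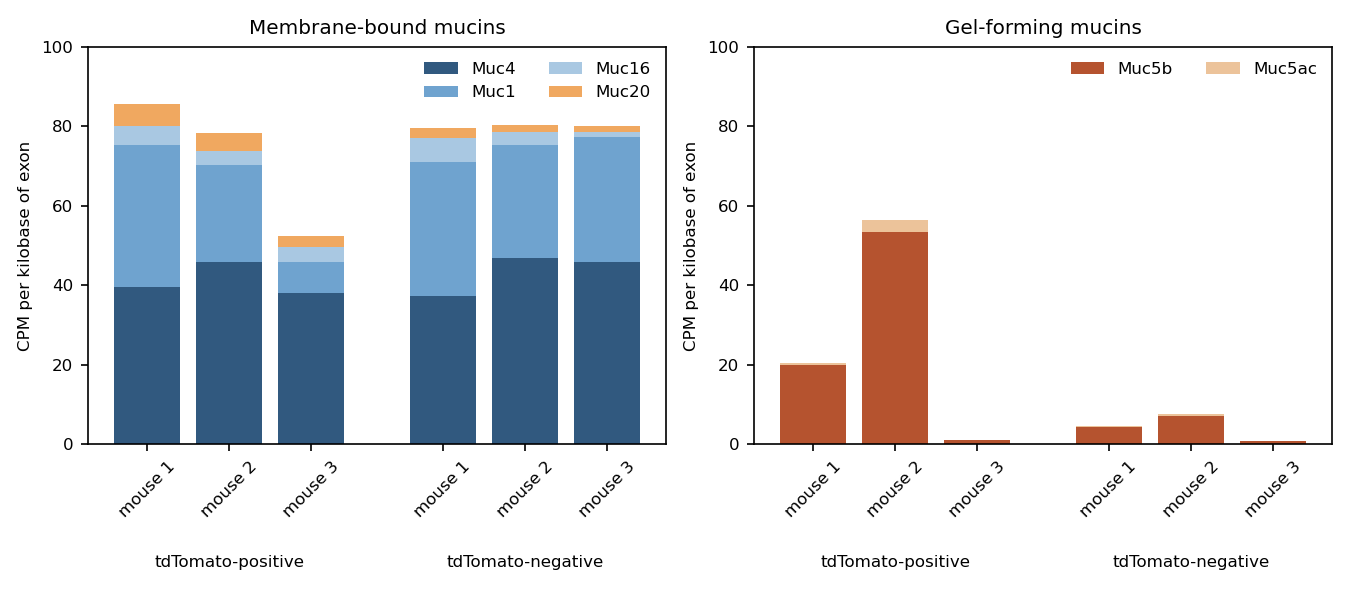
Summed level of the membrane-bound (left) and gel-forming (right) mucins in each library, in CPM per kilobase of exon on the same linear axis from 0, with stacked bars for the genes and tdTomato-positive libraries left of tdTomato-negative ones. The membrane-bound bars reach 52.4 to 85.7 and are mostly Muc4 and Muc1, and the gel-forming bars reach 0.873 to 56.4 and are nearly all Muc5b.

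The 4 goblet cell genes had few reads, from 0 to 21 in a library. Agr2, a disulfide isomerase of the endoplasmic reticulum needed for mucin folding, lies at chr12:35992907-36004087 on the plus strand and had 12, 19 and 21 reads in the positive libraries of mice 1, 2 and 3, against 7, 13 and 5 reads in the negative ones. Its level was 2.79 ± 0.68 CPM in positive and 1.61 ± 0.792 CPM in negative cells (SD, n = 3 each), higher in the positive library of all 3 mice but with overlap between groups. The log2 fold change was 0.83 with a standard error of 0.697 and an interval of -0.65 to 2.30 (edgeR, adjusted p = 0.608).

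Spdef, the ETS factor that drives goblet cell differentiation, lies at chr17:27714352-27728955 on the minus strand. It had 0, 10 and 0 reads in the positive libraries of mice 1, 2 and 3, against 7, 2 and 0 reads in the negative ones. Foxa3, a forkhead factor of the same programme, lies at chr7:19013284-19023538 on the minus strand and had 0 reads in the 3 positive libraries and 1 read in the negative library of mouse 2. Both were too low for a comparison.

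Tff2, a small trefoil peptide secreted with mucins, lies at chr17:31141049-31144282 on the minus strand. It had 21, 10 and 2 reads in the positive libraries of mice 1, 2 and 3, against 4, 4 and 2 reads in the negative ones. A gene with 0 reads could stand at up to 0.475 to 0.507 CPM in the positive and 0.576 to 0.585 CPM in the negative libraries, the level of 3 reads, and this limit covers counting error only. A difference in Spdef or Foxa3 under this limit was not detectable at this depth. The Spdef reads given above went in opposite directions in mice 1 and 2.

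The other genes of mucin biology were read from 6 lists with 74 genes, of which 73 were in the tables and 48 were tested. With the mouse as a block, 3 rose and 1 fell (edgeR), beside 1.36% of all genes higher and 1.79% lower. Without the block only Ehf passed (edgeR).

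Of the 7 other mucins, only Muc6, the gel-forming mucin known from stomach glands, had enough reads to be tested. It was at 4.38 ± 0.382 CPM in positive and 5.95 ± 1.21 CPM in negative cells (SD, n = 3 each), and the log2 difference was -0.43 (edgeR, adjusted p = 0.711).

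Of the 13 other goblet cell genes, 4 were tested and 1, Bpifb1, rose. Bpifb1 encodes a secreted protein of the airway lining found in secretory cells. It was at 121, 176 and 0.318 CPM in positive cells of mice 1, 2 and 3, against 40.4, 28.0 and 0.585 CPM in the negative ones. Mouse 3 had 2 reads in the positive and 3 reads in the negative library, so the rise was seen in mice 1 and 2. The log2 fold change was 2.01 with a standard error of 0.298 (edgeR, adjusted p = 0.000601; adjusted p = 0.753 without the block). DESeq2 with the mouse in the design gave an adjusted p of 0.432.

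Some goblet cell genes are named here after their values were seen. Clca1, a secreted protease known from allergic goblet cells, had 0, 372 and 0 reads in the positive libraries of mice 1, 2 and 3, against 5, 107 and 0 reads in the negative ones, and it failed the filter on low counts. Nearly all its reads came from mouse 2, the mouse with the most Muc5ac. Fcgbp, which encodes a mucus component that binds to mucin networks, had 31, 137 and 17 reads in the positive libraries, against 8, 12 and 12 reads in the negative ones. Its positive libraries lay above the negative ones, and the log2 difference was 1.81 (edgeR, adjusted p = 0.108). Limma-voom called it (adjusted p = 0.0399), as it did Bpifb1. Agr3, a relative of Agr2 known from multiciliated cells, was at 147, 66.6 and 89.4 CPM in the positive libraries, against 113, 71.8 and 86.8 CPM in the negative ones, and the log2 difference was 0.11 (edgeR, adjusted p = 0.808).

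The enzymes of mucin O-glycosylation attach and extend the sugar chains on mucin repeats. Of 23 listed, 15 were tested and none was called by edgeR with or without the block, DESeq2 or limma-voom. In edgeR with the block 5 of the 15 had an unadjusted p under 0.05, against 15.9% of all genes. A log2 fold change above 0 was found in 10 of the 15, as in 6594 of all 13175 genes. The median over the 15 was 0.12. Galnt6, which starts O-glycan chains, differed by a log2 of 0.70 (edgeR, adjusted p = 0.199). St6galnac2, which caps them with sialic acid, differed by -0.80 (edgeR, adjusted p = 0.275).

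Of the 11 genes of granule release, 9 were tested and none was called by edgeR with or without the block or by DESeq2. In edgeR with the block 3 of the 9 had an unadjusted p under 0.05, against 15.9% of all genes. The log2 fold changes of the 9 were above 0 for 3 and below 0 for 6, with a median of -0.24. Rab3d, a small GTPase of secretory granules, was the 1 gene called by limma-voom. It was at 27.5, 10.1 and 17.6 CPM in positive cells of mice 1, 2 and 3, against 10.1, 6.15 and 7.60 CPM in the negative ones, higher in each mouse, and the log2 difference was 1.14 (edgeR, adjusted p = 0.0753). Unc13d, a priming factor of exocytosis, differed by a log2 of 0.75 (edgeR, adjusted p = 0.12). Rab27a, another GTPase of secretory granules, is named after its values were seen. It was at 2.91 ± 1.27 CPM in positive and 8.34 ± 2.07 CPM in negative cells (SD, n = 3 each), with all positive libraries below all negative ones and a log2 difference of -1.54 (edgeR, adjusted p = 0.12).

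Of the 9 partners and sheddases of membrane-bound mucins, 8 were tested and none was called by edgeR with or without the block or by DESeq2. In edgeR with the block 2 of the 8 had an unadjusted p under 0.05, against 15.9% of all genes. The median log2 fold change of the 8 was 0.24. Ezr, the linker of apical membrane proteins to actin, was the 1 gene called by limma-voom, with 1012 ± 224 CPM in positive and 746 ± 115 CPM in negative cells (SD, n = 3 each) and a log2 difference of 0.43 (edgeR, adjusted p = 0.0826). Erbb2, the receptor partner of Muc4, differed by a log2 of 0.53 (edgeR, adjusted p = 0.254).

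The 11 regulators of goblet cell differentiation were all tested, and 2 rose and 1 fell, with a median log2 fold change of 0.06. Elf3, an ETS factor of epithelial differentiation, was at 30.6, 21.7 and 54.5 CPM in positive cells of mice 1, 2 and 3, against 16.9, 9.60 and 24.2 CPM in the negative ones. It was higher in each mouse although the groups overlapped, with a log2 fold change of 1.07 and a standard error of 0.248 (edgeR, adjusted p = 0.023; adjusted p = 0.363 without the block). Without mouse 3 the log2 fold change was 1.01 and missed the threshold (edgeR, adjusted p = 0.457).

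Ehf, another epithelial ETS factor, was at 31.6 CPM in each positive library, against 58.2, 63.6 and 81.3 CPM in negative cells of mice 1, 2 and 3. The groups did not overlap, and the log2 fold change was -1.08 with a standard error of 0.199 (edgeR, adjusted p = 0.00457; adjusted p = 0.0379 without the block). Without mouse 3 it was -0.95 and missed the threshold (edgeR, adjusted p = 0.307). Without the block, leaving out any 1 of the 6 libraries also ended the call.

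Notch1, a receptor of the pathway that favours secretory over multiciliated fate in the airway, was at 111, 141 and 113 CPM in the positive libraries, against 86.3, 51.3 and 76.4 CPM in the negative ones. The groups did not overlap, and the log2 fold change was 0.79 with a standard error of 0.201 (edgeR, adjusted p = 0.0393; adjusted p = 0.203 without the block). It missed the threshold without mouse 2, at 0.47 (edgeR, adjusted p = 0.202), and without mouse 3, at 0.91 (edgeR, adjusted p = 0.368). In the positive library of each mouse the alveolar type 2 sum given above was lower and the club cell sum higher. Elf3 and Notch1 were also higher, and Ehf lower, in the positive library of each mouse. Over the mice, Elf3 was highest in mouse 3 in either fraction, and the club cell sum was lowest there. Such an order over 3 mice does not bear on the difference within a mouse. The part of these cell types in the 3 genes was not tested.

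**Figure D5:**
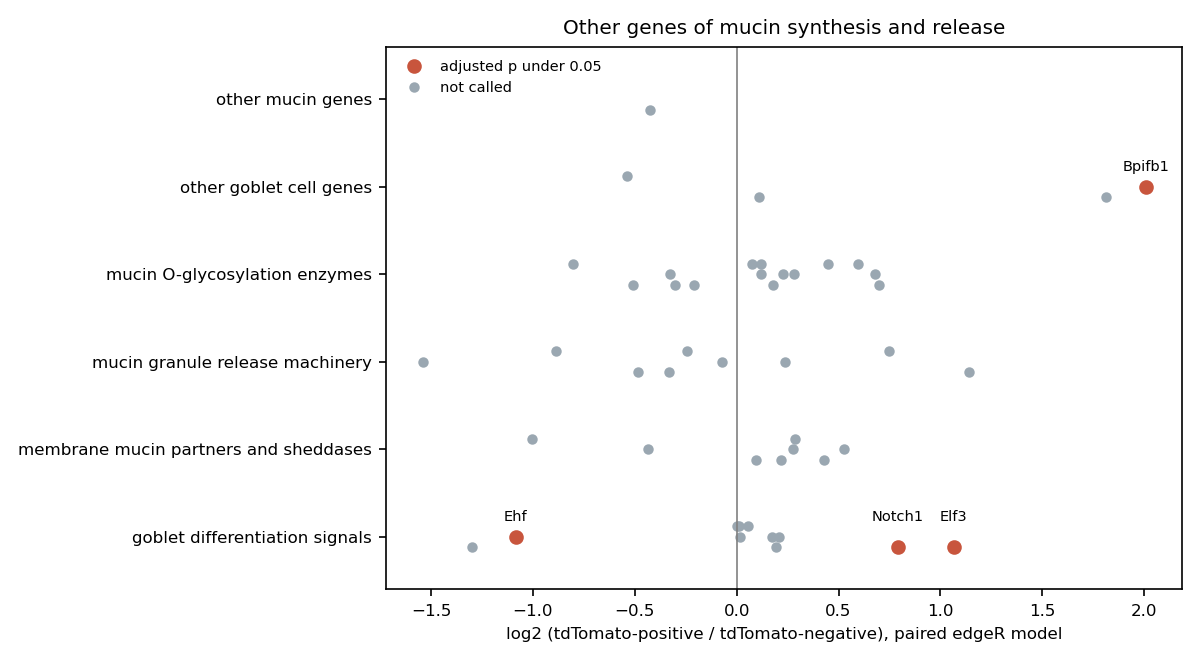
Log2 of tdTomato-positive over tdTomato-negative for the 48 tested genes of the 6 lists in edgeR with the mouse as a block, 1 point a gene, with the 4 called genes in red and named. Bpifb1 at 2.01, Elf3 at 1.07 and Notch1 at 0.79 lie to the right of 0 and Ehf at -1.08 to the left, and the O-glycosylation enzymes lie on both sides of 0.

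Among 11183 genes, those whose log2 CPM followed Muc4 most closely over the 6 libraries were Tbc1d19, Glcci1 and Edem1, with Pearson r of 0.987, 0.981 and 0.979. Those closest to Muc5b were Chad, Zmat3 and Ltf, with r of 0.995, 0.993 and 0.993. These are descriptions, since the libraries share mice and a sort. Chad, which encodes a matrix protein first known from cartilage, was at 49.5, 102 and 1.59 CPM in positive cells of mice 1, 2 and 3, against 12.6, 16.3 and 2.14 CPM in the negative ones. Ltf, which encodes the secreted iron-binding protein lactotransferrin, was at 12.3, 28.5 and 0 CPM in the positive libraries, against 3.30, 4.03 and 0.195 CPM in the negative ones. Their order of libraries follows from how they were chosen, so no difference between the fractions is read from it.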

How the data were processed

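RNA of 3 tdTomato-positive and 3 tdTomato-negative sorts was amplified with Ovation RNA-Seq V2 and made into TruSeq Nano libraries, per the labels' protocols. Each deposited file holds raw counts of reads by gene symbol for 1 library. Per the submitters' processing notes, the builds were GRCm38.p4 and mm10, and the tools included STAR 2.4.2a, HTSeq, cutadapt 1.7.1, DESeq2 and FastQC. The strand setting is not given in the sources used here. HTSeq's summary rows entered neither library sizes nor tests. Reads in no gene were 45.9% ± 3.05 of all rows in positive and 45.7% ± 4.31 in negative libraries (SD, n = 3 each), and multiply aligned reads were 10.3% ± 1.91 in positive and 10.2% ± 0.548 in negative libraries.

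From these counts, CPM with TMM factors, log2 fold changes, standard errors (the log2 fold change over the square root of F) and two-sided p-values were computed with edgeR 4.0.16 in R 4.3.3 (robust quasi-likelihood, filterByExpr with a minimum of 10 counts). Adjusted p-values cover all 13175 genes kept and were called under 0.05. The labels give both fractions of a mouse the same individual, so the mouse was a block. Across genes, the deviations from the group mean correlated at 0.268, 0.254 and 0.348 between the 2 fractions of a mouse. With the block, p-values rest on a count model of the difference between fractions over the 3 mice, with a spread moderated across genes. They do not weigh the 3 log2 differences alike, since a library with few reads weighs little. For Bpifb1 these differences were 1.59, 2.65 and -0.88 in mice 1, 2 and 3, beside a standard error of 0.298. Differences in level between the animals are taken out by the block. DESeq2 1.42.0, limma-voom (limma 3.58.1) and a model with no block were alternatives, beside other scalings and filters and leaving out each mouse or library. The edgeR fit with the block was tested on simulated counts, and the other models and steps were not. Lengths and positions come from GENCODE M21 on GRCm38, where levels per kilobase use the union of exons. The members and lists were chosen with earlier results of these data known. All members are described, and of each other list the called genes or, with none, the 2 of smallest p. Genes closest to Muc4 and Muc5b were the 3 of highest r whose log2 CPM averaged at least 1.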

Additional observations from a re-analysis of the deposited data

How the results depend on the processing

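The number of genes called by edgeR was 415 with the mouse as a replicate block and 82 with no replicate block, 823 with scaling to library size only and 677 with no filter on low counts. It was 59 to 633 without 1 mouse (59 without mouse 3, 633 without mouse 1 and 380 without mouse 2) and, with no block, 34, 42 and 43 without the negative library of mouse 1, 2 and 3 and 113, 74 and 47 without the positive one. Of the 641 higher and 182 lower calls under library size only, the split turned toward higher, against 179 higher and 236 lower with TMM. The number of members called was 0 with the block and 0 with no replicate block, 1 (Muc20) with library size only, 1 (Muc20) with no filter, 2 (Muc5ac and Muc5b) with limma-voom, and 0 to 4 without 1 mouse. Without mouse 1 those were Muc1, which fell, and Muc16, Muc5ac and Muc5b, which rose, and without mouse 3 it was Muc5b. The direction reversed for Muc4 with library size only (0.19, under the shift of 0.259 of all genes) and without mouse 3 (0.024), for Muc16 without mouse 3 (-0.078) and without the negative library of mouse 3 and the block (-0.20), and for Muc5ac without the positive library of mouse 2 and the block (-0.58). Without 1 mouse, Muc4 ranged from -0.17 to 0.024 and Muc16 from -0.078 to 0.89. The cause was not tested beyond what leaving out a library shows. Muc20, Muc5b and Agr2 kept their direction in all 16 alternatives. Muc1 stayed below 0 but came close to it without mouse 3 (-0.069) and with no block and only the positive library of that mouse left out (-0.052), against -0.66 with all libraries. The log2 difference of the membrane-bound over gel-forming ratio ranged from -2.48 to -1.38 over 5 alternatives. Without the most abundant member of each class it gave no value, since Muc5ac had 0 reads in a negative library. The calls of Bpifb1, Elf3, Ehf and Notch1 were lost in 8 of 15, 8 of 16, 7 of 16 and 9 of 16 alternatives. At 5330584 to 6326395 reads per library, Spdef, Foxa3 and Tff2 did not pass the filter on low counts. With no filter all 10 members were tested and Muc20 was the 1 called.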
